A study of Homo sapiens with 4 samples.

Results

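The genes described here encode the machinery that licenses replication origins, unwinds the double helix and copies it at the fork. They were taken by symbol from a list of 44 genes, and 43 of them are among the 20812 targets in the count files. PRIM2 was not matched by its symbol and is not analysed here. Messenger RNA was measured by AmpliSeq in HCT116 cells, an established line from a human colon carcinoma, and the method amplifies 1 short PCR target for each gene and counts its reads. The 4 groups were the hIDO1 overexpressing line with 1 mM indole, the same line with DMF, wild type cells with 1 mM indole and wild type cells with DMF, each for 24 h. Indole is made by gut bacteria from tryptophan, DMF was the control treatment, and IDO1 is an enzyme that opens the tryptophan ring. The labels name neither the promoter that drives IDO1 nor a vector control, and do not say whether the line is 1 clone. Each group is 1 library, so no pair of groups has a replicate check and none is given a p-value.

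Cells copy their genome once per division in a fixed order of steps. The origin recognition complex marks origins, CDC6 and CDT1 load the ring-shaped MCM helicase there in G1, and the DBF4-CDC7 kinase, CDC45 and the GINS complex turn the loaded helicase on in S phase. DNA polymerases, the sliding clamp PCNA, its loader RFC and the single-strand binding protein RPA then carry out synthesis, and E2F transcription factors are known to drive many of these genes as cells enter S phase.

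The libraries held 19069730 reads in the IDO1 line with indole, 22736172 in that line with DMF, 18283862 in wild type with indole and 22673148 in wild type with DMF. IDO1 itself had 2440 and 3451 reads in the IDO1 line with indole and with DMF, against 2 and 0 in wild type with indole and with DMF. Over all genes, the library that lay apart was wild type with indole, with a score of 32.6 on the first principal component (73.0% of the variance), against -15.3 and -13.6 in the IDO1 line (indole and DMF) and -3.7 in wild type with DMF. The 10 colon epithelium markers summed to between 3567.5 and 4890.1 CPM (read counts scaled to library size) in every library, although CDX1 was at 0 and VIL1 had at most 2 reads. The leukocyte markers PTPRC and CD3E, the fibroblast markers COL1A2 and DCN and the endothelial marker CDH5 were at 0 in all 4 libraries. Other markers of these lists had reads in every library, with COL1A1 at 1412 to 1879, PECAM1 at 72 to 104 and LYZ and CD14 at 5 to 18. The 8 markers of embryonic kidney lines summed to 57.9 and 57.2 CPM in the IDO1 line with indole and with DMF, against 1.96 and 1.97 CPM in wild type with indole and with DMF. In the additive fit of line and treatment given below, 6 of the 8 rose with line by edgeR, while PAX2 and LHX1 did not pass and had reads in all 4 libraries. The part of these markers in the comparisons of lines was not tested.

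The replication genes were lowest in wild type cells treated with indole and stood close together in the other 3 libraries. Their summed level was 6185.7 CPM in the IDO1 line with indole, 5831.6 in that line with DMF, 3763.8 in wild type with indole and 5891.2 in wild type with DMF. As a share of all reads they made up 0.621% in the IDO1 line with indole and 0.585% in that line with DMF, against 0.398% in wild type with indole and 0.553% in wild type with DMF. In bulk RNA, fewer cells in a given state and less RNA per cell cannot be told apart.

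Comparisons across genes used the log2 ratio of CPM plus 1, for genes of at least 10 CPM in 1 or both libraries, with CPM scaled by the TMM method. A total of 39 of the 43 genes reached 10 CPM in some library. Wild type with indole was the lowest of the 4 libraries for 36 of these 39, where the same was true of 42.7% of all 8845 genes at that level. It was at least 1.5-fold below each of the other libraries for 13 of the 39, against 5.83% of all genes. Among the other 3 libraries the highest and the lowest differed by a median of 0.24 on the log2 scale for the replication genes and by 0.22 for all genes. The 3 genes not lowest in wild type with indole were GINS4 and POLD3, lowest in wild type with DMF, and MCM5, lowest in the IDO1 line with DMF.

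**Figure D1:**
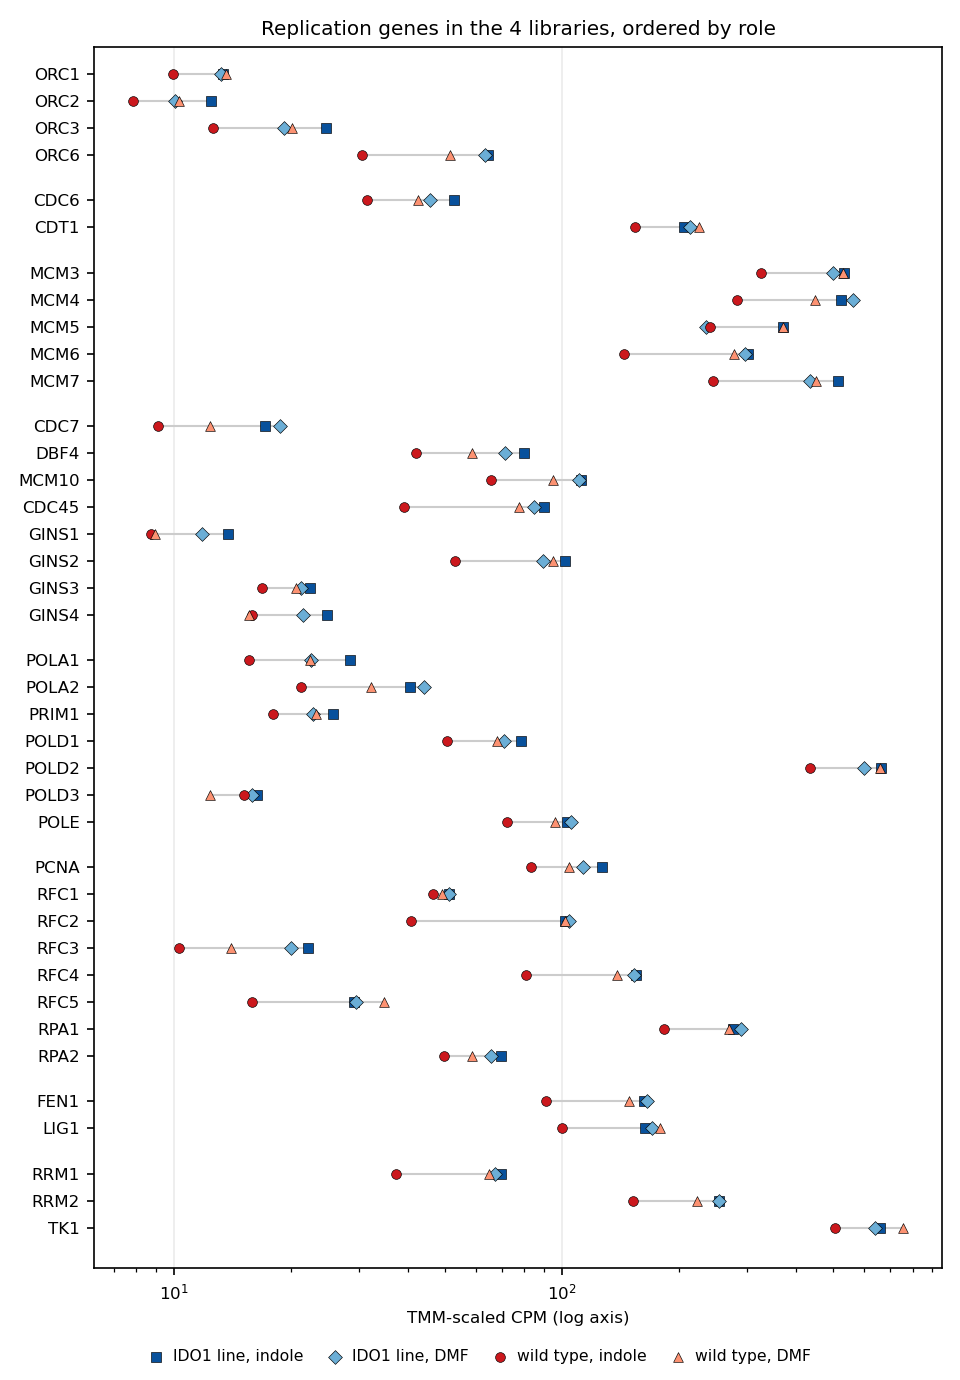
Level of each of the 39 replication genes of at least 10 CPM in the 4 libraries, in TMM-scaled CPM on a log axis, with genes grouped by role down the page. The circles for wild type with indole lie at the left end of the line for 36 of 39 genes, while the squares, diamonds and triangles of the other 3 libraries lie close together for most genes.

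Because the genes are described as one program, the bases before the start sites of 7 of them are shown first, all 7 from the 12 genes with the largest log2 ratio for indole in wild type. They are the 250 bases that precede the annotated start in RefSeq (GRCh38.p14), written 5′ to 3′ on the gene's own strand. They were found by symbol only, since the count files carry no coordinates. Capitals mark matches on either strand to the letters TTTCCCGC, TTTCGCGC, TTTGCCGC, TTTGGCGC or TTCCCGCC, which are forms of the E2F motif. Other forms of the motif were not searched, so a sequence without capitals may still hold one. TTTCCCGCC counts as 2 overlapping matches, and TTTGGCGCGAAA holds a match on each strand. The first 5 sequences hold such letters and the last 2 do not.
MCM6, a subunit of the replicative helicase, chr2:135876444-135876693, minus strand: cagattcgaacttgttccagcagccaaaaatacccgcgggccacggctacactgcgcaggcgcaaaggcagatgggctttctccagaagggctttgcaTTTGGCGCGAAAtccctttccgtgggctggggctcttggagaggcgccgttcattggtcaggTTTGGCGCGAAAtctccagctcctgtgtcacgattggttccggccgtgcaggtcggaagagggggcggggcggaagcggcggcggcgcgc
MCM7, a subunit of the same helicase, chr7:100101398-100101647, minus strand: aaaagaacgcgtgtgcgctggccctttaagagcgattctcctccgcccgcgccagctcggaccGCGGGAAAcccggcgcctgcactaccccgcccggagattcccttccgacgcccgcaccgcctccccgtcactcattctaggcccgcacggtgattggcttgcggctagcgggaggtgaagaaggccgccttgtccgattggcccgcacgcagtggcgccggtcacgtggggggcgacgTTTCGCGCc
GINS2, a subunit of the GINS complex, chr16:85688955-85689204, minus strand: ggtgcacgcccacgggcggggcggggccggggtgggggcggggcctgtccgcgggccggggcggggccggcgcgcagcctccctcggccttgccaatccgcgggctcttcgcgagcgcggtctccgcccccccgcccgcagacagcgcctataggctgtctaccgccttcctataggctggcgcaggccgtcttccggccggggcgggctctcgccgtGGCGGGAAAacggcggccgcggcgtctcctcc
LIG1, the ligase that joins Okazaki fragments, chr19:48170345-48170594, minus strand: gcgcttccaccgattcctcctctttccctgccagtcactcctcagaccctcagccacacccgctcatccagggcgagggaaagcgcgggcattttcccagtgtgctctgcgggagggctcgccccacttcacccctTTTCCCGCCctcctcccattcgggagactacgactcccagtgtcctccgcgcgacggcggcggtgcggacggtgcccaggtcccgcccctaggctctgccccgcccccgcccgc
RRM1, the large subunit of ribonucleotide reductase, chr11:4094435-4094684, plus strand: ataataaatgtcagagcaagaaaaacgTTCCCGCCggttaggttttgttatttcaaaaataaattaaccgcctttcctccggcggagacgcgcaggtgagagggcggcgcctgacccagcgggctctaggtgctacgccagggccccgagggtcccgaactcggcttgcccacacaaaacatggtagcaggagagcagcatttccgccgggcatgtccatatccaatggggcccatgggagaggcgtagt
RFC5, a clamp loader subunit, chr12:118016453-118016702, plus strand: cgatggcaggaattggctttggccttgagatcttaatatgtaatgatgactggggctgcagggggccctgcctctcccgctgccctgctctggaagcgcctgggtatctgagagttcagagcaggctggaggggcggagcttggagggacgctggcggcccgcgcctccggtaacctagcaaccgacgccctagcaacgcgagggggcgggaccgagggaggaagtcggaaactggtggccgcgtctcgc
CDC45, a helicase cofactor, chr22:19479670-19479919, plus strand: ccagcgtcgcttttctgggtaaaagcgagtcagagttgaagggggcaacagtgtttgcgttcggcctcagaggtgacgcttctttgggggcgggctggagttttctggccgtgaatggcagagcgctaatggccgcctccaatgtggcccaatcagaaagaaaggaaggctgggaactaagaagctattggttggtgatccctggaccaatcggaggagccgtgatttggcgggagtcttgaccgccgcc
The MCM6 sequence holds the 12-letter stretch with a match on each strand in 2 places.

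Promoter windows of 300 bases, from 250 before to 50 after a start, were found for 37 of the 43 genes, with 47 windows in all. MCM4, MCM5, GINS4, POLD3, RPA2 and RPA3 had no entry. The E2F letters were present in a window of 23 of the 37 genes, which is 62.2%, against 9.02% of 14009 genes in the count files and 11.8% of 6586 genes of at least 10 CPM. The NF-Y letters CCAAT, searched on both strands, were present in 24 of 37 genes, 64.9%, against 42.3% of all genes and 43.8% of genes of at least 10 CPM. The CHR letters TTTGAA or TTCGAA, a cell cycle element best known from mitotic genes, were present in 3 of 37 genes, 8.11%. The shares were 17.4% of all genes and 14.5% of genes of at least 10 CPM. The 3 replication genes with CHR letters were MCM6, DBF4 and RRM1. In wild type, the 19 genes with E2F letters had a median log2 ratio for indole of -0.58 (-1.30 to -0.27), and the 14 without had -0.55 (-1.08 to -0.07). The medians were -0.57 and -0.55 for the 22 with and the 11 without NF-Y letters, and -0.79 and -0.55 for the 3 with and the 30 without CHR letters. A match to letters is a description of the sequence and not a binding site.

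With indole against DMF in wild type cells, most of the replication genes were lower. The median log2 ratio was -0.55 over the 38 genes compared, with a range of -1.30 to 0.28, against -0.04 over all 8679 genes. A total of 36 of 38 were below 0, as were 53.8% of all genes. At least 1.5-fold lower levels were found for 16 of 38, or 42.1%, against 9.72% of all genes. None was at least 1.5-fold higher, a call made for 7.09% of all genes. RFC2 and RFC5 were at least 2-fold lower, as were 1.54% of all genes. With library totals in place of TMM, 9 of 37 replication genes passed 1.5-fold, all lower. Over all genes the shares were then 4.86% lower and 14.1% higher, and the median of all genes moved to 0.14. Relative to all genes, the median of the replication genes was -0.53 with library totals and -0.51 with TMM.

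**Figure D2:**
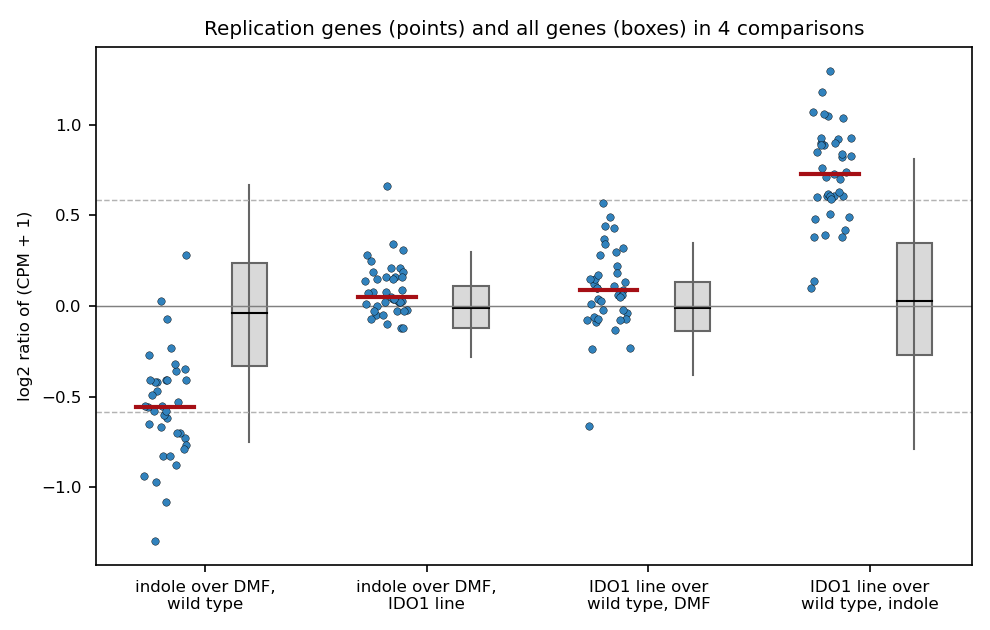
Log2 ratio of CPM plus 1 for the replication genes (points, with the median as a red bar) and for all genes (boxes from the 25th to the 75th percentile, whiskers from the 5th to the 95th) in the 4 comparisons. The points lie around -0.55 for indole in wild type, near 0 for indole in the IDO1 line and for the lines in DMF, and around 0.73 for the lines in indole, and dashed lines mark 1.5-fold.

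Folds of single genes are ratios of scaled CPM with no pseudocount, so a gene can stand at 1.5-fold here and just under the threshold on the log2 scale. The range in brackets is the exact 95% Clopper-Pearson interval, which covers counting error between the libraries compared and nothing else. Because each gene is read from its own target, CPM values are not compared between genes.

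Among the origin recognition genes, whose proteins form the complex that binds origins, all 4 were lower with indole in wild type. ORC6 stood at 64.6 and 63.4 CPM in the IDO1 line with indole and with DMF, against 30.6 and 51.4 CPM in wild type with indole and with DMF. ORC3 had 24.7 and 19.2 CPM in the IDO1 line with indole and with DMF, against 12.6 and 20.2 CPM in wild type with indole and with DMF. Both were lowest in wild type with indole, ORC6 by 1.68-fold (1.52 to 1.86) and ORC3 by 1.61-fold (1.37 to 1.89) relative to wild type with DMF. ORC2 had 12.5 and 10.1 CPM in the IDO1 line with indole and with DMF, against 7.85 and 10.3 CPM in wild type with indole and with DMF. ORC2 and ORC1, a subunit that binds ATP, were 1.31-fold (1.06 to 1.62) and 1.36-fold (1.13 to 1.64) lower with indole in wild type, less than the 1.5-fold threshold.

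The licensing factors CDC6 and CDT1, which bring the helicase to the marked origin, were lower with indole in wild type by less than 1.5-fold. CDC6 had 52.8 and 45.6 CPM in the IDO1 line with indole and with DMF, against 31.5 and 42.5 CPM in wild type with indole and with DMF, where it was 1.35-fold lower with indole (1.22 to 1.5). CDT1 had 206.0 and 213.1 CPM in the IDO1 line with indole and with DMF, against 154.2 and 225.8 CPM in wild type with indole and with DMF, where it was 1.46-fold lower (1.40 to 1.53). GMNN, the inhibitor of CDT1, was under 10 CPM in every library, with 121 and 77 reads in the IDO1 line with indole and with DMF and 48 and 81 reads in wild type with indole and with DMF. It was 1.54-fold lower with indole in wild type (1.06 to 2.24) and 1.87-fold higher with indole in the IDO1 line (1.40 to 2.53).

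The MCM helicase genes were all at least 1.5-fold lower with indole in wild type, 5 of 5, against 9.72% of all genes. No other role with more than 2 genes compared had every gene past this threshold. The count depends on TMM scaling, since MCM3, MCM4 and MCM5 did not reach 1.5-fold with library totals. Summed over its genes the helicase had 2242.6 CPM in the IDO1 line with indole, 2023.3 in that line with DMF, 1238.3 in wild type with indole and 2078.9 in wild type with DMF. MCM6 had 301.0 and 295.7 CPM in the IDO1 line with indole and with DMF, against 144.2 and 278.1 CPM in wild type with indole and with DMF. MCM7 had 515.5 and 434.3 CPM in the IDO1 line with indole and with DMF, against 244.5 and 451.6 CPM in wild type with indole and with DMF. In wild type, MCM6 was 1.93-fold (1.84 to 2.02) and MCM7 1.85-fold (1.78 to 1.91) lower with indole, and these are the genes whose promoters with E2F letters are printed above. MCM3 had 531.2 and 498.0 CPM in the IDO1 line with indole and with DMF, against 325.9 and 529.1 CPM in wild type with indole and with DMF. MCM4 had 523.7 and 561.0 CPM in the IDO1 line with indole and with DMF, against 282.6 and 448.8 CPM in wild type with indole and with DMF. MCM3 was 1.62-fold lower with indole in wild type (1.57 to 1.67) and MCM4 1.59-fold lower (1.54 to 1.64).

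MCM5 did not follow its partners in the ring. It had 371.3 and 234.3 CPM in the IDO1 line with indole and with DMF, against 241.1 and 371.4 CPM in wild type with indole and with DMF. The high and the low level thus appear in crossed pairs: indole went with the higher level in the IDO1 line and with the lower level in wild type. MCM5 was 1.59-fold higher with indole in the IDO1 line (1.53 to 1.64) and 1.54-fold lower in wild type (1.49 to 1.60). MCM2, the sixth subunit, had at most 2 reads in any library, so its target gives no level for this gene.

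At the step that fires origins, CDC45 and GINS2 were at least 1.5-fold lower with indole in wild type, while the other GINS genes differed less. CDC45, which joins the helicase at firing, had 89.8 and 84.6 CPM in the IDO1 line with indole and with DMF, against 39.1 and 77.6 CPM in wild type with indole and with DMF. GINS2 had 102.1 and 89.4 CPM in the IDO1 line with indole and with DMF, against 53.0 and 94.8 CPM in wild type with indole and with DMF. CDC45 was 1.98-fold (1.82 to 2.17) and GINS2 1.79-fold (1.66 to 1.93) lower with indole in wild type. GINS1 had 13.8 and 11.8 CPM in the IDO1 line with indole and with DMF, against 8.73 and 8.93 CPM in wild type with indole and with DMF. GINS4 had 24.8 and 21.5 CPM in the IDO1 line with indole and with DMF, against 15.9 and 15.6 CPM in wild type with indole and with DMF. Unlike GINS2, both stood higher in both IDO1 libraries than in both wild type libraries. Their intervals for indole in wild type span no difference, at 1.02-fold lower (0.827 to 1.27) for GINS1 and 1.02-fold higher (0.873 to 1.20) for GINS4. In the IDO1 line, GINS1 was 1.17-fold (0.984 to 1.39) and GINS4 1.15-fold (1.01 to 1.31) higher with indole. GINS3 was 1.22-fold lower with indole in wild type (1.06 to 1.41), so 4 genes whose products form 1 complex differed in how their messages varied.

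The kinase CDC7 and its activator DBF4, which phosphorylate the helicase, and MCM10, a firing factor, lay between these patterns. CDC7 had 17.2 and 18.8 CPM in the IDO1 line with indole and with DMF, against 9.09 and 12.4 CPM in wild type with indole and with DMF. DBF4 had 79.6 and 71.2 CPM in the IDO1 line with indole and with DMF, against 42.1 and 58.6 CPM in wild type with indole and with DMF. MCM10 had 111.8 and 110.5 CPM in the IDO1 line with indole and with DMF, against 65.5 and 94.8 CPM in wild type with indole and with DMF. For all 3 both IDO1 libraries stood above both wild type libraries. With indole in wild type they were lower by 1.36-fold (1.12 to 1.66), 1.39-fold (1.27 to 1.52) and 1.45-fold (1.35 to 1.55), for CDC7, DBF4 and MCM10 in that order.

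The polymerase and primase genes differed less than the helicase with indole in wild type, with 1 of 7 at least 1.5-fold lower. That is 14.3%, near the 9.72% of all genes. That gene was POLD2, the accessory subunit of polymerase delta, with 662.5 and 601.2 CPM in the IDO1 line with indole and with DMF, against 434.8 and 659.3 CPM in wild type with indole and with DMF. It was 1.52-fold lower with indole in wild type (1.48 to 1.56), and with library totals it did not reach 1.5-fold. POLD1, the catalytic subunit of the same enzyme, had 78.6 and 70.9 CPM in the IDO1 line with indole and with DMF, against 50.5 and 68.1 CPM in wild type with indole and with DMF, a 1.35-fold lower level with indole in wild type (1.24 to 1.46). POLD3, another subunit, went the other way at 1.23-fold higher (1.04 to 1.46), with 16.4 and 15.9 CPM in the IDO1 line with indole and with DMF and 15.2 and 12.4 CPM in wild type with indole and with DMF. In wild type, POLD3 thus did not share the direction of POLD1 and POLD2, and with 1 library per group this difference was not tested.

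Polymerase alpha makes the primer, and POLA1 is its catalytic subunit. POLA1 had 28.4 and 22.6 CPM in the IDO1 line with indole and with DMF, against 15.6 and 22.4 CPM in wild type with indole and with DMF. POLA2, its regulatory subunit, had 40.5 and 44.0 CPM in the IDO1 line with indole and with DMF, against 21.3 and 32.3 CPM in wild type with indole and with DMF. Both were lowest in wild type with indole, by 1.43-fold (1.24 to 1.66) for POLA1 and 1.52-fold (1.34 to 1.72) for POLA2 relative to wild type with DMF. POLA2 was just under the 1.5-fold threshold on the log2 scale of CPM plus 1. The primase PRIM1 was 1.30-fold lower (1.13 to 1.49) and POLE, the leading strand polymerase, 1.34-fold lower (1.25 to 1.43). POLE2, a POLE partner, was under 10 CPM in every library, with 99 and 69 reads in the IDO1 line with indole and with DMF and 44 and 67 reads in wild type with indole and with DMF.

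The largest differences of all replication genes with indole in wild type were in the clamp loader, RFC, which opens PCNA and closes it around primed DNA. RFC2 had 101.7 and 104.1 CPM in the IDO1 line with indole and with DMF, against 40.8 and 102.1 CPM in wild type with indole and with DMF. RFC5 had 29.2 and 29.5 CPM in the IDO1 line with indole and with DMF, against 15.9 and 34.8 CPM in wild type with indole and with DMF. RFC2 was level in 3 libraries and 2.50-fold lower with indole in wild type (2.31 to 2.72), and RFC5 was 2.19-fold lower (1.91 to 2.51). RFC4 had 155.5 and 153.4 CPM in the IDO1 line with indole and with DMF, against 80.9 and 138.2 CPM in wild type with indole and with DMF. RFC3 had 22.2 and 20.0 CPM in the IDO1 line with indole and with DMF, against 10.3 and 14.0 CPM in wild type with indole and with DMF. RFC4 was 1.71-fold (1.61 to 1.82) and RFC3 1.36-fold (1.13 to 1.63) lower with indole in wild type.

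RFC1, the large subunit of the loader, stood apart from its partners. It had 51.3 and 51.2 CPM in the IDO1 line with indole and with DMF, against 46.6 and 49.0 CPM in wild type with indole and with DMF, a 1.05-fold lower level with indole in wild type whose interval spans no difference (0.963 to 1.15). PCNA, the clamp itself, had 126.7 and 113.1 CPM in the IDO1 line with indole and with DMF, against 83.3 and 104.4 CPM in wild type with indole and with DMF. It was 1.25-fold lower with indole in wild type (1.17 to 1.34), less than RFC2, RFC4 or RFC5. RPA1, the large subunit of RPA, had 275.5 and 289.4 CPM in the IDO1 line with indole and with DMF, against 182.7 and 270.0 CPM in wild type with indole and with DMF. RPA1 was 1.48-fold (1.42 to 1.54) and RPA2 1.18-fold (1.08 to 1.29) lower with indole in wild type. RPA3 was listed at 0 in all 4 libraries, so its target gives no level.

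The genes for Okazaki fragment joining were both at least 1.5-fold lower with indole in wild type, against 9.72% of all genes. This depends on TMM scaling, since FEN1 did not reach 1.5-fold with library totals. FEN1, the flap nuclease, had 162.4 and 165.6 CPM in the IDO1 line with indole and with DMF, against 91.2 and 148.8 CPM in wild type with indole and with DMF. LIG1, the ligase, had 163.9 and 170.2 CPM in the IDO1 line with indole and with DMF, against 100.1 and 178.4 CPM in wild type with indole and with DMF. FEN1 was 1.63-fold (1.54 to 1.73) and LIG1 1.78-fold (1.69 to 1.88) lower with indole in wild type.

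Of the genes that supply deoxynucleotides, RRM1, the large subunit of ribonucleotide reductase, had 69.6 and 67.2 CPM in the IDO1 line with indole and with DMF, against 37.3 and 65.0 CPM in wild type with indole and with DMF. RRM2, the small subunit, had 254.4 and 253.1 CPM in the IDO1 line with indole and with DMF, against 152.1 and 222.8 CPM in wild type with indole and with DMF. Both were level between treatments in the IDO1 line. With indole in wild type, RRM1 was 1.74-fold (1.59 to 1.91) and RRM2 1.46-fold (1.40 to 1.53) lower. TK1, the salvage kinase for thymidine, had 658.4 and 642.1 CPM in the IDO1 line with indole and with DMF, against 505.6 and 758.0 CPM in wild type with indole and with DMF, where it was 1.5-fold lower with indole (1.46 to 1.54) and, at a log2 ratio of -0.58, just under the threshold.

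In the IDO1 line, the levels of the same genes with indole were close to those with DMF. The median log2 ratio was 0.05 over 39 genes, with a range of -0.12 to 0.66, against -0.01 over all 8523 genes. A total of 29 of 39 were above 0, as were 48.8% of all genes. MCM5 was the only gene of the 39 at least 1.5-fold higher, a call made for 0.434% of all genes, and none was at least 1.5-fold lower, a call made for 0.282% of all genes. After MCM5 the highest ratios were in ORC3, at 1.28-fold higher (1.12 to 1.46), and POLA1, at 1.25-fold higher (1.11 to 1.42). RFC2, RFC5 and RFC4 were level, with intervals that span no difference: 1.02-fold lower (0.963 to 1.09), 1.01-fold lower (0.903 to 1.13) and 1.01-fold higher (0.965 to 1.06). When genes under 10 CPM are let in, GMNN and POLE2, at 1.71-fold higher (1.25 to 2.36), also pass 1.5-fold.

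The difference between the lines in the log2 ratio for indole, IDO1 line minus wild type, had a median of 0.62 over the 39 genes (-0.23 to 1.28) and 0.03 over all 8845 genes. It was above 0 for 38 of the 39. It was above 0 by at least 1.5-fold for 20 of 39, or 51.3%, against 12.4% of all genes. POLD3 was the exception below 0. Each line has 1 library per treatment, so this difference was not tested gene by gene, and the library that lay apart, wild type with indole, enters it for every gene.

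**Figure D3:**
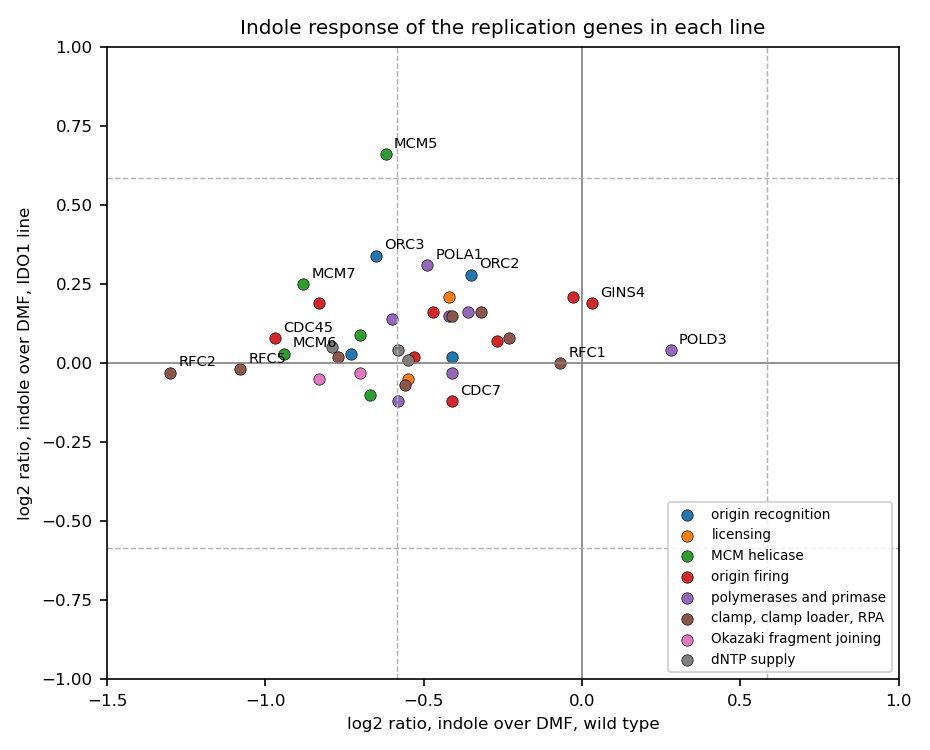
Log2 ratio of CPM plus 1 for indole over DMF in wild type (horizontal) and in the IDO1 line (vertical), 1 point for each of the 39 replication genes, coloured by role, with dashed lines at 1.5-fold. Points spread to -1.30 on the horizontal axis (RFC2) and stay between -0.12 and 0.34 on the vertical axis except for MCM5 at 0.66.

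Between the lines in DMF, the replication genes were close to level. The median log2 ratio of the IDO1 line over wild type was 0.09 over 39 genes, with a range of -0.66 to 0.57, against -0.01 over all 8500 genes. A total of 26 of 39 were above 0, as were 48.4% of all genes. MCM5 was 1.59-fold lower in the IDO1 line (1.53 to 1.64), the only gene of the 39 at least 1.5-fold lower, a call made for 1.26% of all genes. None was at least 1.5-fold higher, a call made for 0.894% of all genes. The highest were CDC7, at 1.52-fold higher in the IDO1 line (1.30 to 1.78), and RFC3, at 1.43-fold higher (1.23 to 1.66). With library totals the median of all genes moved to 0.09, 35 of 39 replication genes were above 0, MCM5 was no longer past 1.5-fold and CDC7 was. With those totals the shares of all genes past 1.5-fold were 0.747% lower and 1.65% higher.

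Between the lines in indole, all 39 genes were higher in the IDO1 line, where 52.8% of all 8765 genes were. This comparison shares its wild type library with the comparison of treatments in wild type and is not separate evidence. The summed embryonic kidney markers given above also differ between these lines. The median log2 ratio was 0.73, with a range of 0.10 to 1.30, against 0.03 over all genes. At least 1.5-fold higher levels were found for 30 of 39, or 76.9%, against 11.6% of all genes, and none was at least 1.5-fold lower, a call made for 9.75% of all genes. The 6 genes at least 2-fold higher, a call made for 2.28% of all genes, were RFC2 at 2.49-fold (2.29 to 2.71), CDC45 at 2.30-fold (2.11 to 2.50), RFC3 at 2.16-fold (1.82 to 2.57), MCM7 at 2.11-fold (2.04 to 2.18), ORC6 at 2.11-fold (1.91 to 2.33) and MCM6 at 2.09-fold (1.99 to 2.18). POLD3 and RFC1 were closest to level, at 1.08-fold (0.918 to 1.27) and 1.10-fold higher (1.00 to 1.21). With library totals 22 genes were at least 1.5-fold higher, as were 8.81% of all genes, against 12.5% lower.

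A single fit over the 4 libraries, with line and treatment as additive terms, gave no call for any replication gene. The test was edgeR's quasi-likelihood test with Benjamini-Hochberg adjustment over 13122 genes, of which 41 are replication genes, and 1 residual degree of freedom is left. A low level in 1 library alone is split between both terms and that residual. The fit is thus poorly suited to calling such a pattern. For indole over both lines, 0 genes (0%) rose and 0 (0%) fell at an adjusted p under 0.05, with 448 at an unadjusted p under 0.05, and DESeq2 also called 0, with 129 unadjusted. Of the replication genes, 2 had an unadjusted p under 0.05 by edgeR and 1 by DESeq2. The gene with the smallest p was RFC2, whose log2 change was -0.66 (SE 0.255, adjusted p = 1.000 by edgeR).

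For line over both treatments, 267 genes rose (2.03%) and 55 fell (0.419%) by edgeR, and none of them was a replication gene. With a filter of 10 CPM in at least 2 libraries, 26 rose and 48 fell by edgeR, and DESeq2 gave 74 and 12, again with no replication gene among them. The log2 fold change was above 0 for 40 of 41, with a median of 0.43, and 13 had an unadjusted p under 0.05 by edgeR, where 1311 of all 13122 genes did. By DESeq2, 10 of 42 had one, where 720 of all 16748 genes did, and 0 of them were called after adjustment. RFC3 was nearest to the threshold, at 0.80 (SE 0.253, adjusted p = 0.118 by edgeR), with POLA2 at 0.68 (SE 0.228, adjusted p = 0.160 by edgeR) and CDC7 at 0.75 (SE 0.254, adjusted p = 0.163 by edgeR). The gene below 0 was MCM5, at -0.03 (SE 0.276, adjusted p = 0.989 by edgeR). Without the library of wild type with indole, the median was 0.06 for line, against 0.43 with all 4 libraries, and 0.07 for indole, against -0.22 with all 4. That fit leaves no residual degree of freedom. Its terms repeat the comparison of lines in DMF and of treatments in the IDO1 line, and are not a separate check.

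The replication genes are set beside 3 other lists, also chosen with earlier results known. Of 39 further replication genes, 33 were compared for indole in wild type, and their median was -0.45 (log2 ratio). Of these, 8 (24.2%) were lower by at least 1.5-fold and 0 were higher, against 9.72% and 7.09% of all genes. Those with the largest ratios make or use thymidylate, or bind PCNA. DTYMK, thymidylate kinase, had 83.8 and 95.8 CPM in the IDO1 line with indole and with DMF, against 36.2 and 92.7 CPM in wild type with indole and with DMF. TYMS, thymidylate synthase, had 622.0 and 580.4 CPM in the IDO1 line with indole and with DMF, against 281.3 and 623.5 CPM in wild type with indole and with DMF. PCLAF, a PCNA-binding factor, had 100.8 and 88.0 CPM in the IDO1 line with indole and with DMF, against 48.8 and 95.4 CPM in wild type with indole and with DMF. All 3 were lowest in wild type with indole, by 2.56-fold (2.35 to 2.80), 2.22-fold (2.15 to 2.29) and 1.96-fold (1.81 to 2.12) relative to wild type with DMF, in the order named.

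The E2F and RB regulators of S phase entry differed less as a group. For indole in wild type their median was -0.28 (log2 ratio, 18 genes), with 1 lower and 1 higher by at least 1.5-fold. Each is 5.56% of the list, below the 9.72% of all genes lower and the 7.09% higher. Most still leaned lower, with 14 of the 18 below 0, where 53.8% of all genes were. The 4 above 0 include inhibitors such as CDKN1A, so the median pools opposite directions. CDKN2C, an inhibitor of the cyclin D kinases, had 19.3 and 23.6 CPM in the IDO1 line with indole and with DMF, against 3.93 and 17.5 CPM in wild type with indole and with DMF. CDKN1A, the inhibitor p21, had 303.7 and 259.2 CPM in the IDO1 line with indole and with DMF, against 420.9 and 267.1 CPM in wild type with indole and with DMF. CDKN2C was thus lowest, by 4.47-fold (3.48 to 5.79), and CDKN1A highest, by 1.58-fold (1.52 to 1.63), in wild type with indole relative to wild type with DMF. E2F4, an E2F that acts with RB family proteins, was 1.51-fold lower (1.41 to 1.61). In the additive fit CDKN2C was the only gene of the 3 lists that passed: it rose with line, by 1.29 on the log2 scale (SE 0.318, adjusted p = 0.0187 by edgeR). It was 4.91-fold higher in the IDO1 line in indole (3.83 to 6.37) and 1.35-fold higher in DMF (1.18 to 1.54).

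Mitotic genes, which act later in the cycle, had larger ratios than the replication genes. The median log2 ratio for indole in wild type was -1.15 over 20 genes. All 20 were at least 1.5-fold lower and 13 at least 2-fold lower, against 9.72% and 1.54% of all genes. SPC24, a kinetochore subunit, was 3.20-fold lower (2.80 to 3.66), BIRC5 2.54-fold lower (2.43 to 2.64) and CCNB1, cyclin B1, 2.51-fold lower (2.33 to 2.71). In the IDO1 line the medians for indole were 0.02, 0.02 and -0.01 for the further replication genes, the E2F and RB regulators and the mitotic genes, against 0.05 for the replication genes described here.

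**Figure D4:**
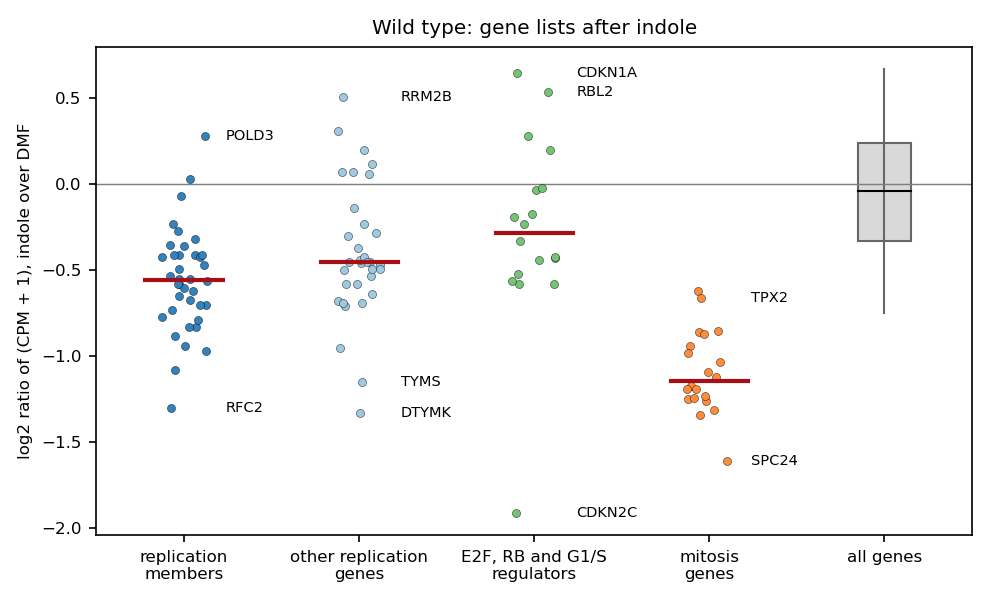
Log2 ratio of CPM plus 1 for indole over DMF in wild type, 1 point per gene, with the median as a red bar, for the replication genes and 3 other lists, and for all genes as a box (25th to 75th percentile) with whiskers (5th to 95th). The medians are -0.55, -0.45, -0.28 and -1.15 from left to right, against -0.04 for all genes.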

How the data were processed

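The deposited files hold whole-number read counts per amplicon target, which the authors left unnormalized, per the file headers. Per the labels' protocols, libraries were made from total RNA with an AmpliSeq transcriptome kit. Per the submitters' processing notes, reads were placed on hg19. The aligner and counter are not given in the sources used here, and the design text states 2 replicates each, but every file has 1 count column, so each group was treated as 1 library. No source states whether separate cultures were used. With 1 library per group, no spread within a group was measured, biological or technical. The p-values rest on the 1 residual degree of freedom of the additive fit over these 4 libraries.

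Counts were scaled by TMM (edgeR 4.0.16) to CPM. Log2 ratios used a pseudocount of 1 CPM, which understates differences of low genes, and a minimum of 10 CPM in either library. Intervals are exact Clopper-Pearson at 95% (scipy 1.17.1). Since PCR reads lacking molecular identifiers can copy 1 molecule many times, intervals cover counting error only. A count of 0 allows up to 3 reads, which is 0.131 to 0.157 CPM. The additive fit used filterByExpr, then edgeR's quasi-likelihood test, with p-values adjusted by Benjamini-Hochberg and called at 0.05, with DESeq2 1.42.0 as an alternative. Its SE is the log2 fold change over the square root of F and is approximate. The residual holds the interaction of line and treatment plus library noise. Windows before start sites were read from RefSeq (GRCh38.p14).

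The genes and all lists were chosen with earlier results of these data known. Values in every library are given for the 12 genes with the largest ratio for indole in wild type and for every gene at least 1.5-fold apart in another comparison. The 3 largest ratios of each other list are named. Also named, after their values were seen, are the exceptions and genes near or under a threshold: ORC1, CDT1, TK1, RFC1, POLD3, GINS3, PRIM1, POLE, RPA2, GMNN, POLE2, MCM2, RPA3, RRM2B, WDHD1 and POLD4. The alternatives tried were scaling by library totals, by median-of-ratios or by cyclic loess, pseudocounts of 0.25 and 5, minimums of 1 and 50 CPM and none, and for the fit also no filter, 10 CPM in at least 2 libraries, DESeq2 and leaving out each library.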

Additional observations from a re-analysis of the deposited data

Results flagged for a closer look

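MCM5, a helicase subunit, is the 1 replication gene of at least 10 CPM that was at least 1.5-fold apart in opposite directions in both crossed comparisons. The log2 ratio for indole was 0.66 in the IDO1 line and -0.62 in wild type, a difference of 1.28. The log2 ratio of the IDO1 line over wild type was 0.62 in indole and -0.66 in DMF, again a difference of 1.28, since both differences rest on the same 4 values. Its counts were 7106 and 5345 reads in the IDO1 line with indole and with DMF, against 4665 and 7898 reads in wild type with indole and with DMF. With 1 library per group the difference was not tested.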

How the results depend on the processing

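No paired analysis was possible because each group has 1 library and the labels carry no replicate numbers. Of 124 values recomputed for the replication genes as a group, 105 stayed within the spread set for them and 19 moved. The additive indole median was the only one of them to change sign. Of 595 recomputed for single genes, 514 stayed and 81 moved. For indole in wild type, the median log2 ratio was -0.39 with library totals and -0.40 with cyclic loess, against -0.55. The number of genes at least 1.5-fold lower was 9 with library totals, against 16, and the number at least 2-fold lower was 1 with library totals, a pseudocount of 5 CPM or a minimum of 50 CPM, against 2. For indole in the IDO1 line, 3 genes were at least 1.5-fold higher with a minimum of 1 CPM or none, against 1, since GMNN and POLE2 then enter. Between the lines in DMF, 2 were at least 1.5-fold apart with a pseudocount of 0.25 CPM, against 1. Between the lines in indole, the median was 0.65 and 2 genes were at least 2-fold higher with library totals, against 0.73 and 6. Leaving out 1 library at a time, the median additive effect for indole was -0.55 without either IDO1 library and 0.07 without either wild type library, against -0.22. For line it was 0.06 without either indole library and 0.74 without either DMF library, against 0.43. With a library left out, the fit has no residual degree of freedom, so these medians repeat the pairwise comparisons. Over all genes, calls for indole were 0 with median-of-ratios factors and by DESeq2, and 5 to 9 rose and 0 or 1 fell with library totals, without a filter or with 10 CPM in at least 2 libraries. In every alternative fit 0 replication genes passed, with the smallest adjusted p for line at 0.0502 without a filter on low counts (edgeR). Depth limits GMNN and POLE2, which had 44 to 121 reads per library, while MCM2 and RPA3 gave no level.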

Other observations

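Values are given here for 3 of the further replication genes, chosen after their values were seen. RRM2B, the ribonucleotide reductase subunit known as a p53 target, had 11.5 and 8.06 CPM in the IDO1 line with indole and with DMF, against 13.2 and 8.93 CPM in wild type with indole and with DMF. It was higher with indole in both lines, by 1.43-fold in the IDO1 line (1.17 to 1.74) and by 1.47-fold in wild type (1.22 to 1.79). Its additive log2 fold change for indole was 0.54 (SE 0.265, adjusted p = 1.000 by edgeR).

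WDHD1, a fork protein that binds polymerase alpha, had 23.8 and 33.0 CPM in the IDO1 line with indole and with DMF, against 14.1 and 17.3 CPM in wild type with indole and with DMF. It was lower with indole in both lines, by 1.39-fold in the IDO1 line (1.23 to 1.56) and by 1.23-fold in wild type (1.05 to 1.44). POLD4, the small subunit of polymerase delta, stood below wild type in the IDO1 line, by 1.60-fold in indole (1.46 to 1.76) and by 1.46-fold in DMF (1.34 to 1.59). The additive line effect by edgeR was 0.84 (SE 0.236, adjusted p = 0.0537) for WDHD1 and -0.62 (SE 0.218, adjusted p = 0.199) for POLD4, and neither passed.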
